A study of Caenorhabditis elegans with 2 samples.

Results

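The chaperone and co-chaperone genes of Caenorhabditis elegans were examined for promoter peaks of CEH-30, a homeodomain transcription factor best known for the survival of male-specific sensory neurons. Members were all protein-coding genes named dnj-, cct- or hsp- with a number, leaving out the hsp-16 small heat shock genes, in the Ensembl annotation of the WBcel235 assembly (the same coordinates as ce11). There were 53 of 19973 protein-coding genes on the nuclear chromosomes, of which 29 were dnj, 8 cct and 16 hsp genes. A gene was counted as having a summit when the highest point of a peak lay between 1000 bp upstream and 500 bp downstream of its outermost annotated 5′ end. Chromatin immunoprecipitation followed by sequencing (ChIP-seq) was done on whole late embryos of both sexes from strain OP120, which carries the integrated transgene wgIs120 for eGFP-tagged ceh-30 in an unc-119(ed3) mutant background. All libraries carry the same transgene and mutation, and the 2 biological replicates form 1 group. The labels do not say how many copies the transgene has or how its level compares with the endogenous gene, and whole embryos mix all cell types. No group was set against another, so no result below has a p-value.

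Chaperones bind unfolded or partly folded proteins and help them reach or keep their shape. HSP70 proteins do so in cycles of ATP binding and hydrolysis, J domain proteins (the dnj genes) deliver substrates and stimulate the hydrolysis, and HSP110 proteins exchange the nucleotide. The chaperonin TRiC, built from the cct gene products, folds actin and tubulin in a closed chamber, while HSP90 completes the folding of kinases and receptors. The set was labelled constitutive, but peak lists hold no expression values and this could not be checked. By textbook knowledge hsp-70 is strongly induced by heat, and hsp-4 by unfolded proteins in the endoplasmic reticulum.

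The authors' optimal list, made from both replicates with the irreproducible discovery rate (IDR) procedure, held 545 peaks, which were the strongest of 30000 peaks in the relaxed list of the pooled replicates. Relaxed lists, which also hold background, gave 30000 peaks in replicate 1 and 17926 in replicate 2. Each peak has a signal, the authors' own value for its strength, which never falls below 0. The signal is on a scale of its own in each list, so ranks by signal (1 is the highest) are used to set the replicates side by side. The lists hold no read counts, so depth is unknown, and the exact intervals below cover the counting of genes only and treat genes as independent.

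An optimal summit lay in the promoter window of 9 of the 53 chaperone genes, 16.98% (95% exact Clopper-Pearson interval 8.07% to 29.8%), beside 2.4% of all protein-coding genes. They were 3 hsp genes (hsp-110, hsp-3 and hsp-1), 5 dnj genes (dnj-29, dnj-19, dnj-9, dnj-13 and dnj-5) and 1 cct gene (cct-7). By family this was 18.8% of the hsp genes, 17.2% of the dnj genes and 12.5% of the cct genes, and the families' intervals overlapped widely. With the 545 strongest peaks of replicate 2 alone the count was 11 members (20.8%, beside 2.22% of all genes), and with those of replicate 1 alone it was 9 (16.98%, beside 2.49%). At each member's strongest pooled summit, the sequence 50 bp to either side held no 32-base word that recurs elsewhere in the genome.

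More members followed just below the optimal list. Among the 1000 strongest pooled peaks, 16 chaperone genes had a summit in the window (30.2%, beside 4.53% of all genes), and among the 2000 strongest 21 did (39.6%, beside 7.93%). Among the 5000 strongest the count was 26 members, 49.1% beside 14.1%. In the whole pooled relaxed list 44 members had a summit (83.0%, 95% exact interval 70.2% to 91.9%, beside 45% of all genes). The replicate 1 list placed a summit at 42 members (79.2%, beside 45.3%), the replicate 2 list at 32 (60.4%, beside 31.2%), and both lists did so at 27 (50.9%, beside 20.3%). The weakest member inside the optimal list was hsp-1, with a pooled signal of 39.5 and rank 513, and the strongest outside it were dnj-14 (37.2, rank 617) and cct-5 (35.8, rank 683), where the lowest optimal signal of any peak was 38.9.

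**Figure D1:**
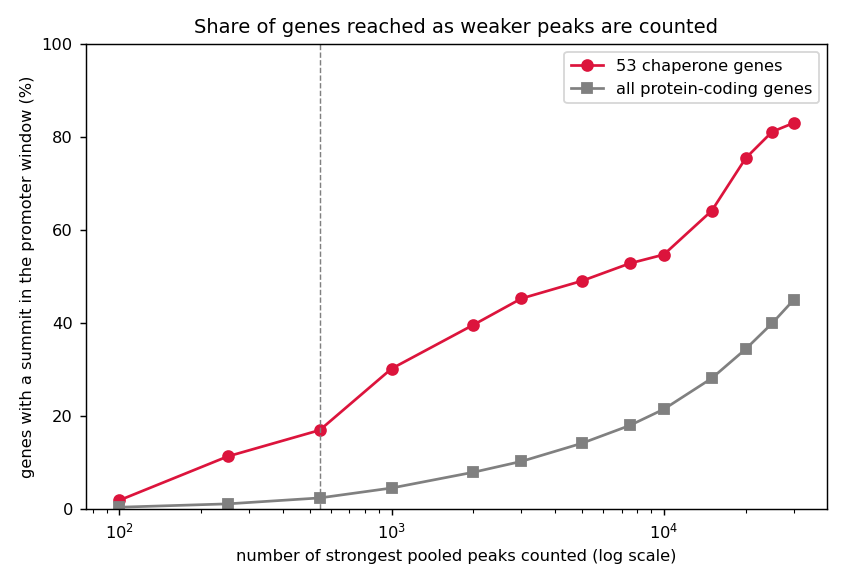
Percentage of genes with a summit in the promoter window (vertical axis) as more of the pooled peaks are counted from the strongest down (horizontal axis, log scale), for the 53 chaperone genes (red circles) and all 19973 protein-coding genes (grey squares). The dashed line marks the 545 optimal peaks, where the shares were 16.98% and 2.4%; the red curve lies above the grey one at every point plotted.

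The HSP70 and HSP110 genes, which encode the central ATP-driven folding machinery, had the highest pooled promoter window signals among the hsp genes. All 6 had a pooled summit within the 2000 strongest, beside 7.93% of all genes, and hsp-70 was the lowest (24.3, rank 1970). In replicate 1 alone the order did not hold. There hsp-60 (20.9) was above hsp-6 (16.5), hsp-3 (15.6) and hsp-70 (5.86), and hsp-4 had no summit. In replicate 2 the lowest of the 6, hsp-6 (10.4), was just above hsp-60 (10.3). The strongest member of all was hsp-110, which encodes the HSP110 nucleotide exchange factor (gene WBGene00016250 at III:8443910-8446909, minus strand). Its peak at III:8446952-8447295 had a pooled signal of 70.02, rank 72, with 41.2 in replicate 1 (rank 36) and 33.1 in replicate 2 (rank 164). Both replicates therefore ranked it among their 545 strongest. Its summit was intergenic, which here means outside all protein-coding genes. It lay 215 bp upstream of hsp-110 and 229 bp from the 5′ end of rpn-3, a proteasome subunit gene. The summit was thus in both windows. The sequence 50 bp to either side overlapped an exon of the noncoding RNA gene C30C11.14. The same was true at the optimal summits of cct-7 (T10B5.13), dnj-13 (F54D5.22) and dnj-19 (C24G6.10).

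The endoplasmic reticulum HSP70 genes hsp-3 and hsp-4, the worm's BiP genes, were unlike in the 2 replicates. At hsp-3 (X:6089028-6092124) the peak lay 116 bp upstream with a pooled signal of 50.9, rank 230. The peaks that overlapped it ranked 1234 in replicate 1 (signal 15.6, summit 8 bp upstream) and 246 in replicate 2 (signal 29.4, summit 120 bp upstream). At hsp-4 (II:7350112-7352645) the pooled peak lay 89 bp downstream of the 5′ end, in an intron, with a signal of 25.04 and rank 1797. Replicate 2 placed a peak there at rank 308 and replicate 1 placed none in the window. The cytosolic genes hsp-1, the constitutive HSC70, and hsp-70, the stress-induced HSP70, also differed in place. At hsp-1 (IV:17278959-17281330) the intergenic summit 376 bp upstream had a pooled signal of 39.5, and overlapping peaks ranked 290 in replicate 1 and 1064 in replicate 2. The replicate 2 peak had its summit 501 bp upstream, 122 bp from that of replicate 1. The hsp-70 summit lay 475 bp downstream of the 5′ end, in a coding exon that also lies in an intron of uggt-2, with a pooled signal of 24.3 (rank 1970), rank 453 in replicate 2 and no overlapping replicate 1 peak. For hsp-6, the mitochondrial HSP70, the pooled signal was 27.1 (rank 1398) at 416 bp upstream, nearer to the 5′ end of C37H5.5 at 184 bp.

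Sequences at these summits are shown because the heat shock element, the site of the stress factor HSF-1, is built from inverted GAA blocks, and because some windows held it. Windows with such a word at an optimal peak or with the 3-block element come first, and hsp-3 and dnj-9 are given as unshared promoters without one. Each is the reference genome (RefSeq copy of WBcel235, ce11 coordinates) 50 bp to either side of the summit, 5′ to 3′ on the gene's strand. The hsp-60 window is at a relaxed pooled peak and the hsp-90 window at a peak in an intron, and the other 5 are at optimal promoter peaks. Capitals mark the 2-block heat shock words GAANNTTC and TTCNNGAA (N is any base) and 5 words rich in G and C described further on.
hsp-110, III:8447074-8447174, minus strand: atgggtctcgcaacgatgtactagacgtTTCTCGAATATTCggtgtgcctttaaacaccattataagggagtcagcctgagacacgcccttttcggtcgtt
hsp-60, III:1619026-1619126, plus strand: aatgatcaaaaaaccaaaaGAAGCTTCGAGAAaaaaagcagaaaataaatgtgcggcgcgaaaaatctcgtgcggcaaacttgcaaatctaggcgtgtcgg
hsp-90, V:14685717-14685817, plus strand: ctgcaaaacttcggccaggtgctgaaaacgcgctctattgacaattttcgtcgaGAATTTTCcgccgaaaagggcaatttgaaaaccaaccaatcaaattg
hsp-1, IV:17278533-17278633, plus strand: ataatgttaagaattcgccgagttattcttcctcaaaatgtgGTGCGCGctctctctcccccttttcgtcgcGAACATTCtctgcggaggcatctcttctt
dnj-13, II:11545487-11545587, plus strand: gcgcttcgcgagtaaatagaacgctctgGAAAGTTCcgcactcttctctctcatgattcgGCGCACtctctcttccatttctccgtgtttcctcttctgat
hsp-3, X:6092190-6092290, minus strand: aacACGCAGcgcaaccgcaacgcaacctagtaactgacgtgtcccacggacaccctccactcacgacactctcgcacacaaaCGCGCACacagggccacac
dnj-9, II:4851751-4851851, plus strand: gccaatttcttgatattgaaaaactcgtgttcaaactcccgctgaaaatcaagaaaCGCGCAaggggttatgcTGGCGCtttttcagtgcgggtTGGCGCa
In hsp-110 and hsp-60 the capitals form an unbroken element of 3 alternating blocks. In hsp-90, hsp-1 and dnj-13 a single GAANNTTC word is present, and words rich in G and C are marked in hsp-1 and dnj-13 as well. In hsp-3 and dnj-9 only the words rich in G and C are marked. The windows of cct-7 and dnj-5 held neither kind of word. Those of dnj-29 and dnj-19, also not printed, each held GCGCCA and GCGCAC, which are rich in G and C, and no heat shock word.

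The 2 HSP90 genes among the members, hsp-90 and hsp-75, had no optimal summit in the promoter window, but hsp-90 had a strong one inside the gene. In the window of hsp-90 (WBGene00000915, V:14684918-14688545), which encodes the cytosolic HSP90, the pooled relaxed peak 216 bp upstream had a signal of 12.57 and rank 18343. The replicate 2 peak that overlapped it (rank 15559) had its summit 29 bp downstream of the 5′ end, and replicate 1 had no peak in the window. The optimal peak at V:14685595-14685938 lay in an intron of hsp-90, 849 bp downstream of the outermost 5′ end. Its pooled signal was 69.5, rank 76, just below the hsp-110 peak, with 27.3 in replicate 1 (rank 188) and 41.7 in replicate 2 (rank 65). The annotation gives hsp-90 2 transcript 5′ ends, and the summit lay 393 bp upstream of the inner one. With any transcript 5′ end in place of the outermost one, hsp-90 joined the set and the count was 10 of 53, 18.9% beside 2.59% of all genes. The gene for the mitochondrial HSP90, hsp-75, had a pooled signal of 12.56 at 720 bp upstream (rank 18361), and no peak of either replicate overlapped it. A different replicate 1 peak of rank 25814 lay 188 bp upstream, and replicate 2 had none in the window. The mitochondrial chaperonin gene hsp-60 shared its summit with Y22D7AL.10, which encodes the HSP10 lid of the same chaperonin. This summit, 666 bp upstream of hsp-60 and 147 bp upstream of Y22D7AL.10, had a pooled signal of 23.1 (rank 2310). A replicate 1 peak overlapped it at rank 471 and no replicate 2 peak did.

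**Figure D2:**
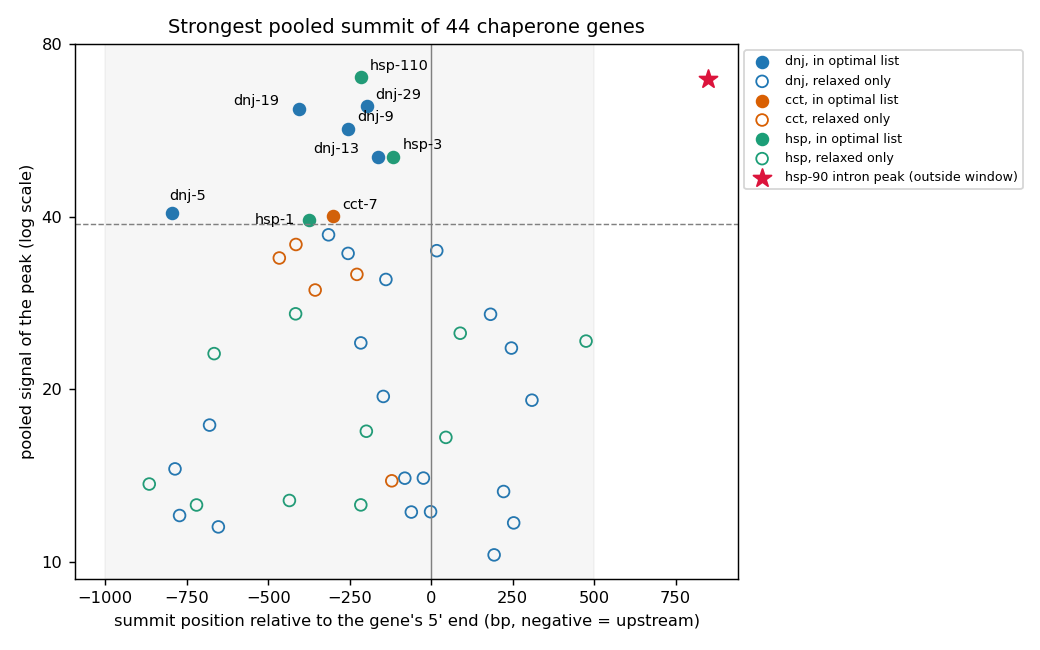
Pooled signal of each member's strongest peak (vertical axis, log scale) against the position of its summit relative to the 5′ end in bp (horizontal axis), for the 44 members with a pooled summit. Filled points are in the optimal list, the grey band is the promoter window, the dashed line is the lowest optimal signal (38.9) and the star is the hsp-90 intron peak, 849 bp downstream; all 9 filled points lie upstream of the 5′ end.

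Among J domain protein genes, 25 of 29 had a pooled summit (86.2%, beside 45% of all genes) and 14 had one in both replicates (48.3%, beside 20.3%). The highest was at dnj-29, the worm SEC63 of protein import into the endoplasmic reticulum, on chromosome I from 14104515 to 14113108. Its summit 198 bp upstream had a pooled signal of 62.4 (rank 109), with 34.004 in replicate 1 (rank 76) and 27.7 in replicate 2 (rank 285). It also lay in the windows of ndua-2, a respiratory complex I gene, at 330 bp, and fld-1 at 888 bp. The dnj-19 summit, with a pooled signal of 61.7 (rank 117), ranked 320 in replicate 1 and 117 in replicate 2. This gene encodes a DnaJ-type partner of cytosolic HSP70, but the summit lay 407 bp from its 5′ end and 11 bp from that of nhr-47, in the nhr-47 5′ UTR. At dnj-9 (II:4852056-4857820) the summit lay 255 bp upstream in intergenic sequence, with no other gene's window over it, and had signals of 26.5 in replicate 1 (rank 211) and 27.9 in replicate 2 (rank 278). Thus dnj-29, dnj-19 and dnj-9 were among the 545 strongest of both replicates.

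The dnj-13 gene (II:11545701-11547360) encodes the DNAJB-type co-chaperone that works with HSC70 and HSP110 to break up protein aggregates. Its summit 164 bp upstream, in an intron of dhgd-1, had a pooled signal of 50.8 (rank 231), and ranked 158 in replicate 1 and 656 in replicate 2. This summit also lay in the window of F54D5.9, at 709 bp. In both replicates the strongest summit in the dnj-13 window lay at the same base. At dnj-5 the summit was the farthest of the optimal ones, 794 bp upstream, with a pooled signal of 40.6 (rank 467). Overlapping peaks ranked 554 in replicate 1 and 511 in replicate 2. The replicate 1 peak had its summit 542 bp upstream, 255 bp from that of replicate 2.

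Below the optimal list came 4 dnj genes within the 1000 strongest pooled peaks. At dnj-14, the cysteine string protein of synaptic vesicles, the pooled signal was 37.2, with rank 3535 in replicate 1 and 298 in replicate 2. At dnj-12, a second partner of cytosolic HSP70, it was 34.9 (rank 732) at 17 bp downstream, with ranks 2604 and 560 in replicates 1 and 2. At dnj-11, the MIDA1-type J protein known for the unequal division and death of neuroblast daughters, it was 34.5, with ranks 1637 and 467. These 3 were higher in rank in replicate 2 than in replicate 1. The summits at dnj-14 and dnj-11 lay 315 and 255 bp upstream, and both were nearer to another gene, glit-1 and F38A5.2, each at 216 bp. In contrast, dnj-22 (31.1, rank 976) ranked 345 in replicate 1 and 14817 in replicate 2, and its summit was nearer to natc-1 at 100 bp than to dnj-22 at 139 bp. Weaker summits present in both replicates' relaxed lists, mostly at low ranks there, included dnj-20, the ERdj3-type protein of the endoplasmic reticulum (24.1, rank 2009). It ranked 1023 in replicate 1 and 16067 in replicate 2. Others were dnj-16 (23.6, rank 2154, with ranks 7619 and 1743) and dnj-10, the mitochondrial Tid1-type protein (19.4, rank 4299, with ranks 5255 and 4674). The last was dnj-24 (17.3, rank 6636, with ranks 8273 and 7089). At dnj-7, the P58IPK-type protein of the endoplasmic reticulum, a peak 182 bp downstream (27.02, rank 1404) had rank 755 in replicate 1 and no replicate 2 peak. No list held a summit at dnj-21, a subunit of the mitochondrial import motor, or at dnj-23.

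The 8 TRiC subunit genes fell into 5 with a pooled summit within the 2000 strongest peaks (62.5%, beside 7.93% of all genes) and 3 with weak or no summits. At cct-7 (V:1872246-1875505) the optimal summit 301 bp upstream had a pooled signal of 40.1 (rank 493), 23.4 in replicate 1 (rank 332) and 16.3 in replicate 2 (rank 1463). It lay nearer to T10B5.4, at 138 bp. At cct-5 the pooled signal was 35.8 at 415 bp upstream, with ranks 877 and 7845 in replicates 1 and 2. At cct-8 it was 33.9 (rank 780) at 466 bp upstream, with ranks 10455 and 272, the reverse imbalance. At cct-1 it was 31.7 (rank 935) at 228 bp upstream, with ranks 904 and 2021. At cct-6 it was 29.8 (rank 1092) at 356 bp upstream, with ranks 1697 and 3008. Each of these 5 summits also lay in another gene's window and nearer to that gene's 5′ end. The neighbours were T10B5.4, F25F2.1, Y55F3AR.2, mig-5 (a Dishevelled gene of Wnt signalling) and alh-9 (an aldehyde dehydrogenase gene), and in alh-9 the summit lay in the 5′ UTR. The remaining subunits had 1 pooled peak of signal 13.8 at cct-2 (rank 13856), a replicate 1 peak of rank 25137 at cct-3 and no summit in any list at cct-4.

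Small heat shock protein genes, whose products hold unfolded proteins without using ATP, had no optimal summit in the window at any of the 7 members (95% exact upper limit 40.96%), too few genes to show a share near 2.4%. A pooled summit was present at 4 (57.1%, 95% exact interval 18.4% to 90.1%), near the 45% of all genes. The highest were hsp-12.1 (signal 16.9, rank 7202) and hsp-12.2 (16.5, rank 7816), followed by hsp-25 (13.7, rank 14433) and hsp-43 (12.79, rank 17372). No list held a summit at hsp-12.6, and hsp-12.3 and hsp-17 had only replicate 1 peaks of ranks 22769 and 18080.

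**Figure D3:**
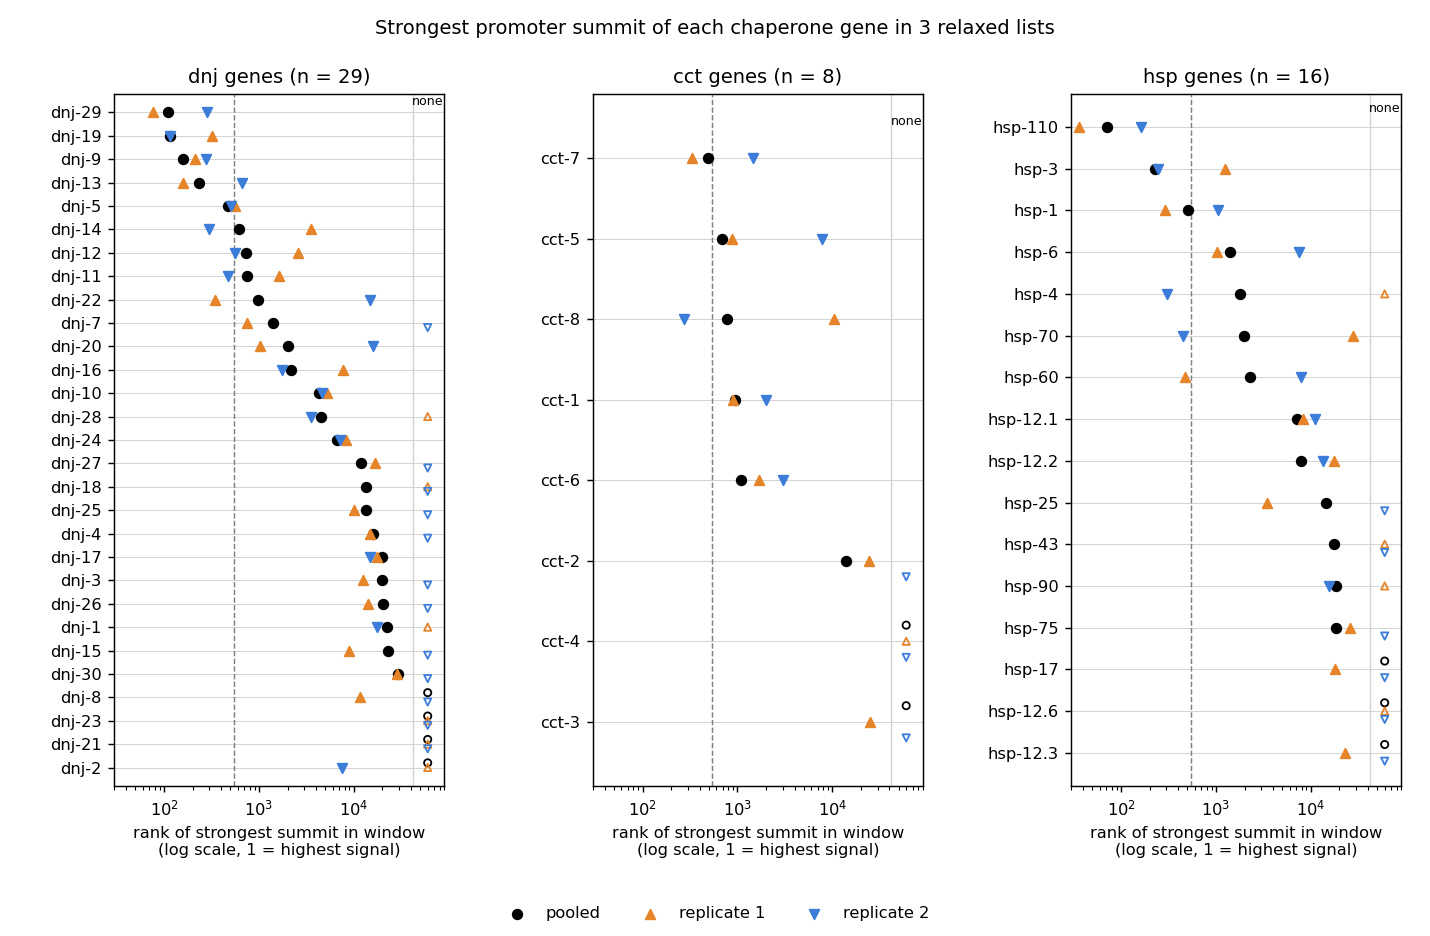
Rank by signal (horizontal axis, log scale, 1 is the strongest) of the strongest summit in the promoter window of each member (rows), in the pooled list (circles), replicate 1 (upward triangles) and replicate 2 (downward triangles), in 1 panel for each of dnj, cct and hsp. Open symbols in the column marked none show lists with no summit, and the dashed line is rank 545; hsp-110, dnj-29, dnj-19 and dnj-9 have all 3 symbols left of it.

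Other genes of the chaperone network were counted in the same way. Of 55 such genes, covering co-chaperones of HSP90 and HSP70, prefoldin, protein disulphide isomerases, cyclophilins, FK506-binding proteins and hsf-1, 4 had an optimal summit (7.27%, 95% exact interval 2.02% to 17.6%, beside 2.4% of all genes). Their count was 10 with the 545 strongest peaks of replicate 1 alone (18.2%, beside 2.49% of all genes). With those of replicate 2 alone it was 6 (10.9%, beside 2.22%). Within the 1000 strongest pooled peaks 19 had a summit, 34.5% beside 4.53%. The 4 genes were C34C12.8, the GrpE nucleotide exchange factor of mitochondrial HSP70 (pooled signal 62.3, ranks 226 and 202 in replicates 1 and 2), and ahsa-1, the activator of the HSP90 ATPase (54.0, ranks 367 and 231). They also included fkb-7, a peptidyl-prolyl isomerase (53.9, ranks 202 and 320), and aip-1, an arsenite-inducible proteasome-associated gene (42.8, ranks 518 and 455). The summits of ahsa-1, fkb-7 and aip-1 also lay in the windows of C01G10.7, B0511.12 and ddx-17. At hsf-1, the master regulator of the heat shock response, a pooled summit 82 bp downstream had a signal of 23.9 (rank 2069), with ranks 11382 and 765.

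Members' optimal summits lay upstream of the gene, as most optimal summits did. All 9 were upstream of the 5′ end, at 116 to 794 bp with a median of 255 bp, beside 453 of the 480 genes with an optimal summit (94.4%, median 241 bp upstream). Of the 9, 7 were outside protein-coding genes (intergenic), 5 also lay in another protein-coding gene's window, and for 7 the member had the nearest 5′ end. Over the 480 genes these shares were 85.6%, 57.7% and 69.6%. In the pooled relaxed list 34 of 44 member summits were upstream, 77.3% beside 74.8%. None of the 44 lay within 1000 bp of a tRNA, snoRNA or snRNA gene. The nearest was the snoRNA gene F26D10.24, 1463 bp from the hsp-1 summit. The share over all genes within 1000 bp was not counted. Leaving out summits within 500 bp of a small RNA gene took all genes with an optimal summit only from 2.4% to 2.21%. The 9 members cannot show a difference of that size. C. elegans genes can also be transcribed in operons from a promoter farther upstream, and operons were not used here.

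Base words at the members' optimal summits are a description of 9 windows. GAANNTTC or TTCNNGAA stood within 50 bp of 3 of the 9 summits (hsp-110, hsp-1 and dnj-13), 33.3% beside 6.61% of all 545 optimal summits, and the 3-block element at 1 of the 9, beside 0.734%. At the strongest pooled summits of the 44 members the 2-block words stood at 8, 18.2% beside 11.7% of the 8987 genes with a pooled summit, a smaller gap. The other 5 were cct-1, cct-5, cct-6, dnj-3 and hsp-60. In promoters from 250 bp upstream to 50 bp downstream of the 5′ end, the 2-block words stood in 22 of 53 members, 41.5% beside 32.5% of all protein-coding genes. The 3-block element stood in 5, 9.43% beside 1.97%, namely hsp-1, hsp-70, hsp-90, hsp-110 and dnj-12. A homeodomain word (TAATTG or TAATTA or TAAACG) was within 50 bp of none of the 9 summits, beside 7.89% of all optimal summits, a share that 9 windows cannot show. At the 44 strongest pooled summits such a word stood at 6, 13.6% beside 14.5%, and it was present in 45.3% of member promoters beside 41.98% of all. The shorter homeodomain core TAAT stood at 4 of the 9 summits (cct-7, dnj-29, hsp-1 and hsp-110), 44.4% beside 33.4% of all optimal summits. Of the 44 pooled summits 24 had it, 54.5% beside 59.4%. All words were searched on both strands. The words rich in G and C (GACGCA and then ACGCAG, with GCGCCA or CGCGCA or GCGCAC) had been picked for being frequent at these same 545 summits, and some overlap each other. At least 1 stood at 6 of the 9 summits, 66.7% beside 46.8%. GACGCA was at none of the 9, beside 18.7% of all. GCGCAC was at 5 of the 9, beside 14.9%. The median G and C content was 47.5% at the 9 summits and 48.5% at all optimal summits.

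Many members differed in rank between the replicates, also where the replicates' summits lay close together. Of the 53 members, hsp-110, dnj-29, dnj-19 and dnj-9 had a summit among the 545 strongest of both replicates (7.55%, beside 1.07% of all genes). Those of replicate 1 only held 5 members (cct-7, dnj-13, dnj-22, hsp-1 and hsp-60; 9.43%, beside 1.42%). Those of replicate 2 only held 7 (cct-8, dnj-11, dnj-14, dnj-5, hsp-3, hsp-4 and hsp-70; 13.2%, beside 1.15%). At the 27 members with a summit in both replicates, the strongest summits of the replicates lay a median of 62 bp apart, and 17 pairs lay within 100 bp (62.96%, beside 43.4% of the 4049 genes with a summit in both). At hsp-70, hsp-12.2, hsp-60, dnj-17 and hsp-12.1 they lay 1047, 958, 877, 640 and 467 bp apart, so the ranks there belong to different peaks. Spearman's rho of the ranks over the 27 members, these 5 included, was 0.322, beside 0.414 over the 4049 genes, a description across genes that share the same libraries. A summit was found in replicate 1 only at 15 members (28.3%, beside 25.1% of all genes) and in replicate 2 only at 5 (9.43%, beside 10.9%), both near the shares of all genes. Neither replicate had one at 6 members (11.3%, beside 43.8%), of which dnj-18 and hsp-43 had a pooled summit.

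**Figure D4:**
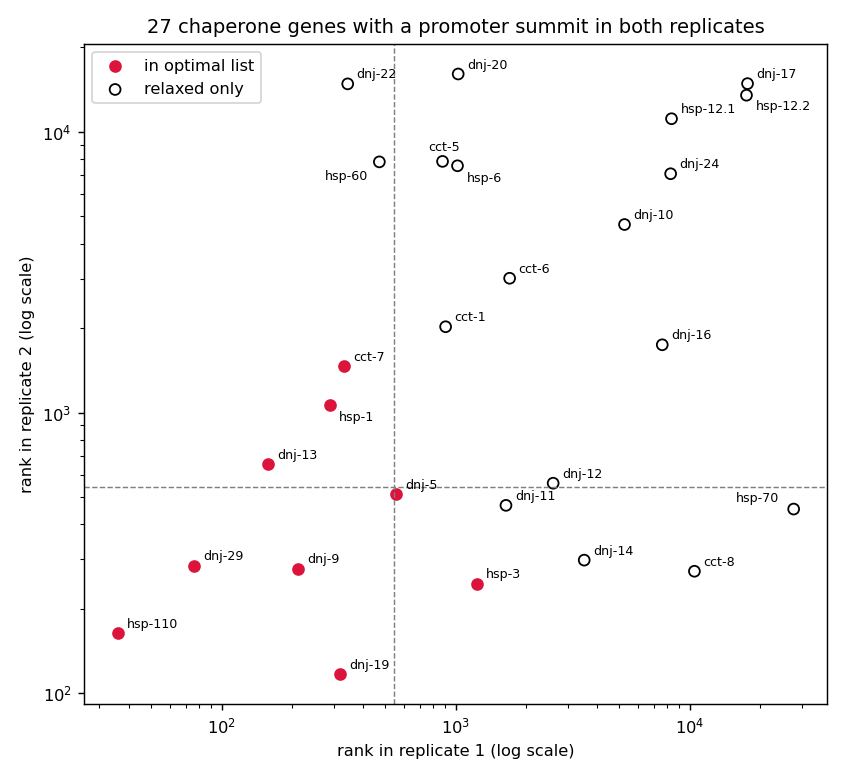
Rank by signal in replicate 2 (vertical axis, log scale) against rank in replicate 1 (horizontal axis, log scale) of the strongest promoter summit for the 27 members with one in both replicates. Filled points are members in the optimal list and dashed lines mark rank 545; 4 filled points lie left of and below both lines, and hsp-70, cct-8 and dnj-22 lie far from the diagonal.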

How the data were processed

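CEH-30 ChIP-seq peak lists of 2 replicates were used. The authors deposited narrowPeak lists on ce11 for replicate 1, replicate 2 and the pooled reads. Which aligner, caller and IDR cut-off made them is not given in the sources used here. Each deposited signal is the authors' own value for the strength of a peak, on a scale of each list, and how it was computed is not given there either. The deposited significance score was not used, nor were the ce10 lists. Replicates are separate biological replicates per the labels.

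Summits (column start plus offset) were set against Ensembl release 115 5′ ends with Python 3.11.15, pandas 2.3.3 and SciPy 1.17.1, after a check of the assignment on made peaks. Sequences came from the RefSeq copy of WBcel235. No test was run, and replicate peaks were matched to pooled peaks by 1 bp of overlap. The members, the other chaperone list (56 names, 55 found) and the words were chosen with earlier results of these data known. Named were all members with an optimal summit, the next 15 by pooled signal with a summit in both replicates, all cct genes, the main hsp genes, and optimal genes of the other list; hsf-1 and the remaining members named here were chosen after their values were seen. The alternatives were other windows, other 5′ ends, the nearest 5′ end only, any base of a peak, fewer peaks and each replicate alone.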

Additional observations from a re-analysis of the deposited data

How the results depend on the processing

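Over the alternatives, 51 counts stayed within 1.5 times the reported one and 6 did not. The 9 chaperone genes with an optimal summit (16.98%, beside 2.4% of all genes) became 6 to 11. There were 8 with a window of 500 bp upstream to 0 bp (15.1%, beside 1.80%). With the nearest 5′ end only there were 7 (13.2%, beside 1.68%). With the 272 strongest optimal peaks there were 6 (11.3%, beside 1.20%). The count was 11 without replicate 1 (20.8%, beside 2.22%) and 9 without replicate 2 (16.98%, beside 2.49%). The 11 held 6 of the 9 genes and the 9 held 7 of them. Leaving out summits within 500 bp of a small RNA gene, an alternative chosen after seeing the data, kept all 9 (beside 2.21% of all genes). The 1 cct gene became 0 with the nearest 5′ end only (beside 1.68% of all genes) and with the stronger peaks (beside 1.20%). The 4 genes of the other chaperone list became 2 with the nearest 5′ end only (3.64%, beside 1.68% of all genes). They became 6 without replicate 1 (10.9%, beside 2.22%) or 10 without replicate 2 (18.2%, beside 2.49%), and the cause was not tested. The 44 members with a pooled relaxed summit became 26 in the narrower window, which holds fewer bases (49.1%, beside 23.4% of all genes). The 27 with a summit in both replicates became 14 with the nearest 5′ end only, which gives each summit to 1 gene (26.4%, beside 15.5%). No paired analysis was possible because there is 1 group. Depth is unknown, and 2 replicates allow no error on a rank.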

Other observations

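With the hsp-90 intron peak, 7 of the 53 members had an optimal summit within 5000 bp of the 5′ end but outside the promoter window, 13.2% beside 4.48% of all protein-coding genes. Nearest after that of hsp-90 was one at hsp-12.3, a small heat shock gene, where an intergenic summit of signal 52.0 (rank 219) lay 938 bp downstream of the 5′ end, and the same summit lay 2659 bp downstream of that of hsp-12.6. Intergenic summits also lay past dnj-12, at 2597 bp downstream (67.2, rank 85), and past hsp-110, at 3105 bp downstream (63.0, rank 104). At dnj-13 a second optimal summit, in an intron of dhgd-1, lay 1814 bp downstream (41.1, rank 455), and upstream of cct-7 one lay at 3457 bp in the 5′ UTR of T10B5.3 (54.1, rank 189).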
